A study of Mus musculus with 8 samples.

Results

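The genes described here are 10 mouse genes whose products make, move or finish the acylceramides of the skin barrier: Elovl4, Cyp4f39, Cers3, Pnpla1, Abhd5, Abca12, Alox12b, Aloxe3, Sdr9c7 and Nipal4. They were chosen by symbol and not by a cut on their values, but with earlier results of these data known. All 10 of 10 were found among the 16902 genes listed in both deposited tables. RNA was taken from epidermis that had been separated from the dermis of CD1 mouse back skin with dispase, and was sequenced as stranded, poly(A)-selected libraries. The 8 libraries formed 4 groups of 2, each with 1 female and 1 male: IMQ-treated mice labelled Ovol1 -/- (KO IMQ), IMQ-treated mice labelled Ovol1 +/+ (control IMQ), untreated mice labelled Ovol1 -/- (KO untreated) and untreated mice labelled Ovol1 +/- (control untreated). The controls therefore carried different genotypes in the IMQ and the untreated sets. IMQ is the usual short name of imiquimod, an agonist of an innate immune receptor that is applied to mouse skin to give psoriasis-like inflammation, and Ovol1 encodes a zinc-finger transcription factor of differentiating epithelia. The sources used here state neither age nor dose nor length of treatment, and nothing in the labels says more about the animals behind each library than their sex. On mm10 the genes span these positions in the GENCODE vM21 annotation: Elovl4 (chr9:83778692-83806277, minus strand), Cyp4f39 (chr17:32452723-32493320, plus strand), Cers3 (chr7:66743504-66823691, plus strand), Pnpla1 (chr17:28858411-28890309, plus strand), Abhd5 (chr9:122351608-122381524, plus strand). The other 5 are Abca12 (chr1:71242276-71414910, minus strand), Alox12b (chr11:69156989-69169792, plus strand), Aloxe3 (chr11:69125896-69149115, plus strand), Sdr9c7 (chr10:127898518-127911761, plus strand), Nipal4 (chr11:46148155-46166508, minus strand).

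Acylceramides are the lipids that seal the outermost layer of the epidermis. In the upper living layers, a very long fatty acid is built and hydroxylated at its far end, joined to a sphingoid base to give a ceramide, and then esterified with linoleic acid. The product is loaded into lamellar granules, released between the cells, and its linoleate is oxidised by lipoxygenases so that the ceramide can be bound to the protein envelope of the corneocyte. In humans, mutations in genes of this route cause inherited ichthyosis, a scaling disease with a leaky barrier.

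Upstream sequences are given for 3 genes that the results below turn on. Cers3 was higher in IMQ libraries, Elovl4 was lower in them among labelled knockouts and among controls, and Sdr9c7 had the highest male over female estimate. Each sequence is the 250 bases before the RefSeq transcript start (GRCm38.p6, the mm10 assembly), written 5′ to 3′ on the gene's own strand. They lie at chr7:66743254-66743503 (plus strand), chr9:83806306-83806555 (minus strand) and chr10:127898285-127898534 (plus strand). Capitals mark 3 common core promoter elements where they were found: TATAAA on the gene's strand, CCAAT on either strand, and the GC box GGGCGG on either strand, which reads CCGCCC on the other one.
Cers3: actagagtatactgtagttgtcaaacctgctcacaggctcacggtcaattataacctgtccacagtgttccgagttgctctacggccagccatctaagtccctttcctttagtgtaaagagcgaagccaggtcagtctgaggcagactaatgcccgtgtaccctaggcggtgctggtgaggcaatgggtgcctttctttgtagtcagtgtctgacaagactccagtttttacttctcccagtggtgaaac
Elovl4: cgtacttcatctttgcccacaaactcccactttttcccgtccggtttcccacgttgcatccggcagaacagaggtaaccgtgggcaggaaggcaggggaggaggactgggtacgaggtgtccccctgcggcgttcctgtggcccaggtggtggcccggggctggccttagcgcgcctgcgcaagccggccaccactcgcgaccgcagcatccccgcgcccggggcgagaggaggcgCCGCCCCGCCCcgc
Sdr9c7: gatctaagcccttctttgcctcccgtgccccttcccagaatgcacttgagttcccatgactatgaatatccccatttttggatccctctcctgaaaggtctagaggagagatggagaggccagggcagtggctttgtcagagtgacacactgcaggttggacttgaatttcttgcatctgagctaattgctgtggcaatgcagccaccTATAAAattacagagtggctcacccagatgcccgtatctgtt
The TATA element of Sdr9c7 begins 42 bases before the start, and 7.59% of all 32851 RefSeq windows of this length held such an element. GC boxes stood in the windows of Elovl4, Alox12b, Abhd5 and Nipal4, against 32.7% of all windows, and those of Elovl4 overlap by a base and end just before the start. A CCAAT element stood in the window of Pnpla1, against 33.8% of all windows. The window of Elovl4 was 69.6% G and C with 25 CpG dinucleotides, and that of Sdr9c7 was 49.6% G and C with 2 CpG dinucleotides, beside medians of 52.4% and 6 over all windows. The core elements above were chosen after a first, planned search had found no match. That search covered 300 bases, 250 before and 50 after the start, on both strands. It found none of 3 motifs in any of the 9 member windows available. These were CCGTTA (the core bound by Ovol proteins, in 2.76% of all windows), AACCNGTT (Grainyhead-like factors, 2.09%) and TGANTCA (AP-1, 7.81%). No match says only that these letters were absent from these windows.

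The libraries held 28.6 to 43.1 M recovered reads, and the 10 genes together took 0.210% to 0.334% of them. The least counted member value was 1380 reads, so counting error was small beside the differences between libraries. Ovol1 itself was higher in the libraries labelled knockout, by 0.64 on the log2 scale under IMQ (SE 0.15, limma adjusted p = 0.0880) and 0.79 untreated (SE 0.15, limma adjusted p = 0.346). A single value for the whole gene cannot show a deleted exon, so Ovol1 does not check the labels, and the animals are called labelled knockouts throughout. The summed level of 10 suprabasal keratinocyte markers was 12858 and 19177 CPM (counts scaled to library size) in KO IMQ libraries, 17156 and 24625 CPM in control IMQ libraries, 19895 and 22007 CPM in KO untreated libraries, and 20496 and 23140 CPM in control untreated libraries, though Krt2 on that list had only 0.451 to 5.60 CPM. Summed endothelial, skeletal muscle and adipocyte markers reached at most 29.8, 102 and 22.9 CPM, each in the female control IMQ library. In bulk epidermis, a smaller share of cells of one layer and less RNA per cell of that layer cannot be told apart.

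Per kilobase of exon, the elongase was by far the most abundant of these transcripts. Elovl4, which lengthens fatty acids to the ultra-long chains of acylceramides, had a level between 188 and 500 RPKM (reads per kilobase of exon, scaled for library size), with a median of 270 RPKM over 8 libraries. Alox12b, the 12R-lipoxygenase that first oxidises the bound linoleate, followed at a median of 83.1 RPKM (range 40.5 to 156). Sdr9c7 (58.4 RPKM), Cers3 (55.2 RPKM), Nipal4 (54.5 RPKM) and Abca12 (45.1 RPKM) followed, with ranges over the 8 libraries that overlapped. Exon length here is the union of all annotated exons, 14808 bases for Abca12 against 3026 for Elovl4. In CPM, which ignores length, Abca12 had a mean of 653 in control IMQ libraries, against 594 for Elovl4. It was below Elovl4 in the other groups. Cyp4f39 (24.3 RPKM), Abhd5 (23.9 RPKM) and Aloxe3 (20.7 RPKM) formed a lower set with overlapping ranges, and Pnpla1 was least abundant at 9.72 RPKM (6.73 to 14.1). The lowest Elovl4 library lay above the highest Alox12b library, and the highest Pnpla1 library lay below the lowest library of each other member. Elovl4 alone supplied 20.5% to 29.9% of the 10 genes' reads in IMQ libraries, against 30.6% to 47.9% in untreated libraries.

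**Figure D1:**
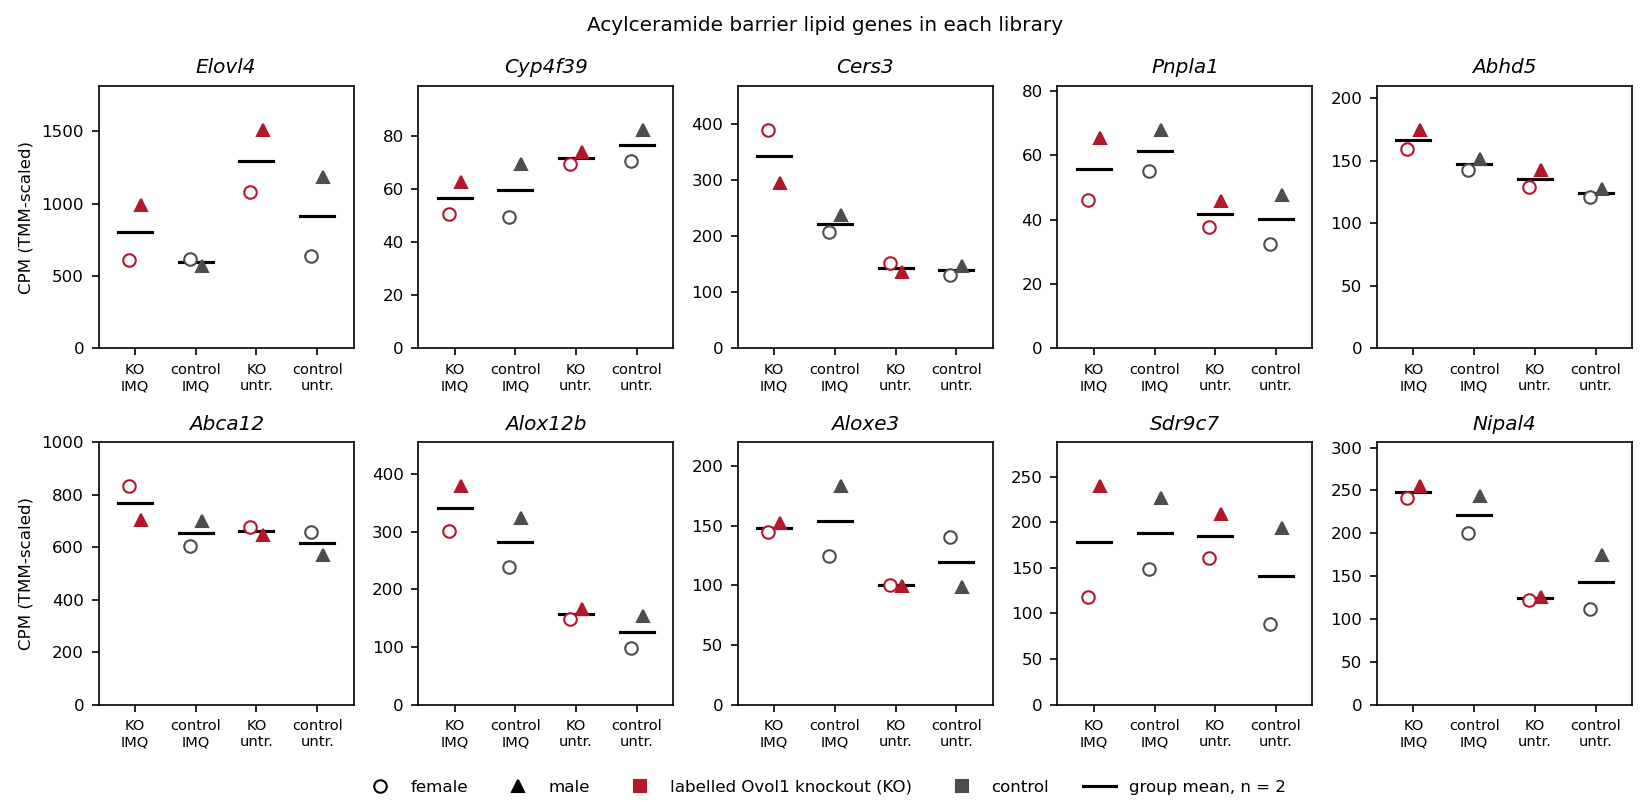
CPM of the 10 genes (vertical axes, from 0) in each library, for KO IMQ, control IMQ, KO untreated and control untreated mice; open circles are females, triangles males, and bars group means (n = 2). Cers3 is highest in both KO IMQ libraries, and Sdr9c7 splits by sex in each group. Elovl4 is lower in KO IMQ than in KO untreated libraries, and lower in control IMQ than in control untreated libraries.

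The question put first was whether labelled loss of Ovol1 went with a different level of this machinery under IMQ or without it. None of the 10 genes passed the test in either setting, or in the difference between the settings. The test was limma on log2 of the deposited value plus 1, with Benjamini-Hochberg adjustment over 14614 genes and a threshold of 0.05. Under IMQ it called 0.438% of all genes tested, 64 in number, and 0 of 10 members (1 at an unadjusted p under 0.05, Cers3, where 22% of all genes were); edgeR called 0.294% of all genes and 0 members, and DESeq2 8.53% and 1. Untreated it called 0% of all genes and 0 of 10 members (0 at an unadjusted p under 0.05, where 4.46% of all genes were); edgeR called 0% and 0 members, and DESeq2 0.595% and 0. For the difference of the genotype effects it also called 0% of all genes and 0 of 10 members (0 at an unadjusted p under 0.05, where 10.1% of all genes were); edgeR called 0% and 0 members, and DESeq2 0.671% and 0. With so few genes called in all, 0 of 10 is near the background in each comparison. With sex as a block the members' adjusted p lay between 0.0982 and 0.955 under IMQ, between 0.767 and 1.00 untreated, and between 0.385 and 0.988 for the difference, with 0 members called beside 2.45%, 0.0547% and 0% of all genes. Before adjustment, the block fit had p under 0.05 for 1 of 10 under IMQ (Cers3, where 25% of all genes had), for 3 of 10 untreated (Elovl4, Alox12b and Sdr9c7, where 5.92% had) and for 1 of 10 in the difference (Sdr9c7, -0.64, where 12.8% had). With 2 libraries per group, these p-values reflect only how far single libraries of a group differ.

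The steps that build the acylceramide came first in order of the pathway. Elovl4 had 18870 normalised counts in the female and 30231 in the male KO IMQ library, against 18875 and 17508 in the control IMQ libraries. In untreated skin it had 40957 and 57463 in KO libraries, against 23938 and 43969 in control libraries. The male KO IMQ library was high and the female one level with its control, and the groups overlapped in both settings. The log2 fold change of Elovl4 was 0.39 under IMQ (SE 0.33, 95% interval -0.38 to 1.17, limma adjusted p = 0.518) and 0.58 untreated (SE 0.33, -0.20 to 1.36, limma adjusted p = 1.00). With 1 library left out these estimates of Elovl4 ranged between 0.0538 and 0.73 under IMQ and between 0.14 and 1.02 untreated.

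Cyp4f39, the cytochrome P450 that puts a hydroxyl group on the far end of the ultra-long chain, had 1568 and 1914 normalised counts in KO IMQ libraries, against 1516 and 2143 in control IMQ libraries. Untreated, its values were 2625 and 2811 in KO libraries, against 2639 and 3066 in control libraries. Both pairs of groups overlapped, and the estimates of -0.06 and -0.07 on the log2 scale (SE 0.19 each) had intervals of -0.50 to 0.38 under IMQ and -0.51 to 0.37 untreated.

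Cers3 had the largest estimate of the 10 under IMQ, though it did not pass the test in limma. Its product, ceramide synthase 3, joins the ultra-long acyl chain to the sphingoid base. There were 12059 and 9008 normalised counts of Cers3 in KO IMQ libraries, against 6331 and 7334 in control IMQ libraries, so both knockout libraries lay above both controls. Untreated, KO libraries had 5739 and 5153, against 4872 and 5488 in control libraries, and these overlapped. Under IMQ the log2 fold change was 0.61 (SE 0.17, 95% interval 0.22 to 1.00), positive for females (0.93) and for males (0.30), with a limma adjusted p of 0.117. DESeq2 on recovered reads gave 0.66 with an adjusted p of 0.0148, past its threshold in that tool, and over the alternatives run the adjusted p of Cers3 under IMQ ranged between 0.0148 and 0.450. The untreated estimate was 0.07 (SE 0.17), and the difference of both effects was 0.54 (SE 0.24, 95% interval -0.01 to 1.09, limma adjusted p = 0.504). Moving with it, the summed stress keratinocyte markers, which include the keratins of activated epidermis, were 10185 and 13208 CPM in KO IMQ libraries, against 4405 and 6771 CPM in control IMQ libraries; 6 of 6 had positive estimates, 0 were called, 0 were at 0 in any library, and their part in the Cers3 values was not tested.

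Pnpla1, the transacylase that attaches linoleate to the hydroxylated ceramide, had 1427 and 1992 normalised counts in KO IMQ libraries, against 1679 and 2095 in control IMQ libraries. Its untreated values were 1430 and 1746 in KO libraries, against 1215 and 1777 in control libraries. Groups overlapped both times, with log2 fold changes of -0.15 under IMQ and 0.10 untreated (SE 0.24 each). Abhd5, the co-factor that hands lipid droplet triglyceride to lipases and to Pnpla1, had 4915 and 5333 in KO IMQ libraries, against 4349 and 4677 in control IMQ libraries. Untreated Abhd5 was 4883 and 5416 in KO libraries, against 4528 and 4737 in control libraries. Abhd5 was thus the only member whose groups did not overlap in both settings, by small steps of 0.18 and 0.15 on the log2 scale (SE 0.11 each, limma adjusted p = 0.377 and 1.00). Exons of Pnpla1 and Abhd5 overlap antisense genes by 644 and 950 bases, and since it is not stated whether counting used strand, their reads cannot be told apart from those of these partners.

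Transport and oxidation follow in the pathway. Abca12, the lamellar granule lipid transporter, had 25754 and 21464 normalised counts in KO IMQ libraries, against 18474 and 21602 in control IMQ libraries, and 25609 and 24623 in KO untreated libraries, against 24647 and 21268 in control untreated ones. The groups overlapped, and the log2 fold changes were 0.24 and 0.13 (SE 0.15 each). Alox12b had 9316 and 11560 in KO IMQ libraries, against 7265 and 9993 in control IMQ libraries, and 5591 and 6311 in KO untreated libraries, against 3675 and 5708 in control untreated ones. Each pair of one sex was higher in the labelled knockout for Alox12b, with log2 fold changes of 0.28 and 0.38 (SE 0.24 each), but the groups overlapped and neither estimate passed the test. With 1 library left out the estimates of Alox12b ranged between 0.0545 and 0.51 under IMQ and between 0.0574 and 0.69 untreated. Aloxe3, its neighbour on chromosome 11 and the next enzyme in the route, had 4464 and 4639 in KO IMQ libraries, against 3802 and 5648 in control IMQ libraries, and 3797 and 3794 in KO untreated libraries, against 5249 and 3669 in control untreated ones. The Aloxe3 knockout values lay inside the control range each time, with estimates of -0.03 and -0.21 (SE 0.22 each).

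Sdr9c7, the dehydrogenase that oxidises the epoxy alcohol left by the lipoxygenases, had 3628 and 7311 normalised counts in the female and male KO IMQ libraries, against 4540 and 6995 in control IMQ libraries. Untreated it had 6089 and 7930 in KO libraries, against 3303 and 7208 in control libraries. In each group the male library was the higher one, and the genotype estimates of -0.13 and 0.51 had the widest intervals of the 10 genes, -1.16 to 0.90 under IMQ and -0.52 to 1.54 untreated (SE 0.44 each), in the fit without sex. With sex as a block the SE was 0.19 and the intervals were -0.58 to 0.32 under IMQ and 0.0632 to 0.96 untreated, with limma adjusted p = 0.702 and 0.790. Nipal4, whose product ichthyin is a membrane protein needed for the barrier and related to magnesium transporters, had 7455 and 7779 in KO IMQ libraries, against 6123 and 7484 in control IMQ libraries. Nipal4 had 4628 and 4789 in KO untreated libraries, against 4174 and 6495 in control untreated libraries. Its groups overlapped, with estimates of 0.17 and -0.15 (SE 0.21 each).

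**Figure D2:**
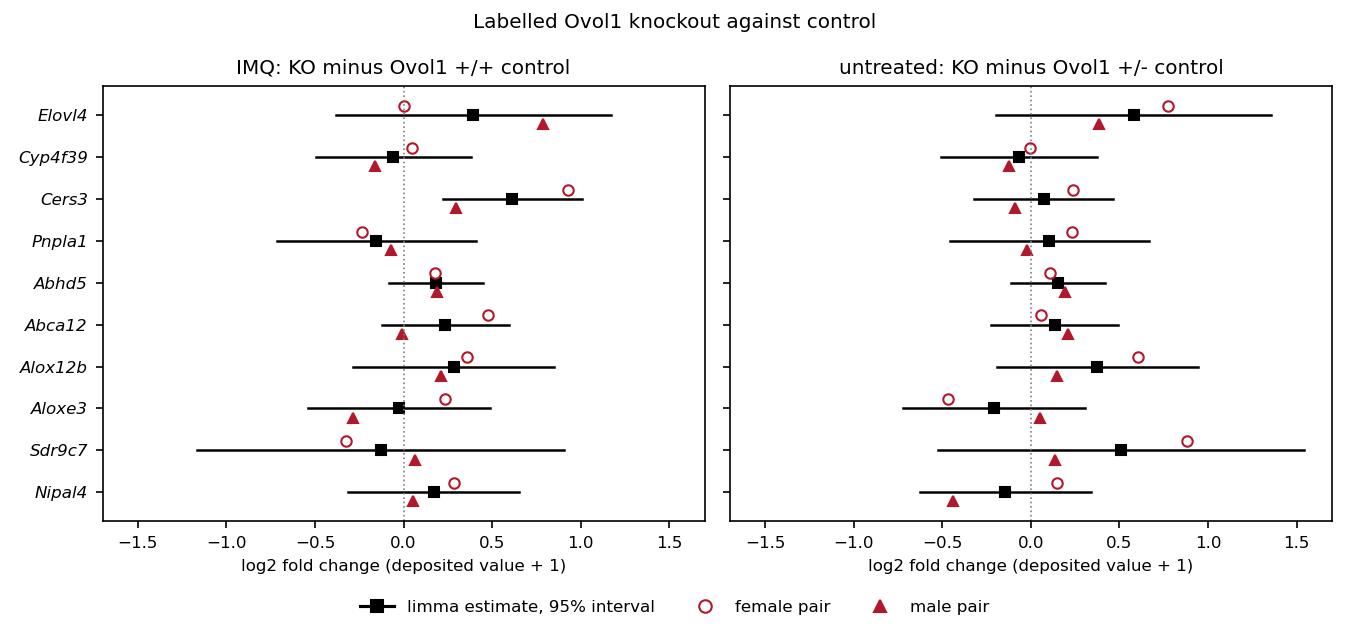
Log2 fold change of labelled Ovol1 knockout over control for each gene, under IMQ (left) and untreated (right); squares with lines are limma estimates with 95% intervals, open circles the female pair and triangles the male pair. The interval of Cers3 under IMQ (0.22 to 1.00) is the only one of the 20 that does not cross 0 in this fit, which has no sex block.

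As a set, the 10 genes had a median log2 fold change of 0.18 under IMQ and 0.12 untreated, beside -0.01 and -0.00 over all genes tested. Their estimates were positive for 6 of 10 under IMQ and 7 of 10 untreated, where 48.7% and 49.5% of all genes were, and for the difference 6 of 10, where 47.3% were. Knockout and control libraries did not overlap for 2 of 10 members under IMQ, Cers3 and Abhd5, both higher in knockouts, and for 1 of 10 untreated, Abhd5, also higher. Among all genes, 53% did not overlap under IMQ and 33.7% untreated (26.6% and 17.4% with the knockouts higher), so the members' counts lay below the background.

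Between IMQ and untreated skin the members differed in both directions. The lipoxygenase Alox12b, the ceramide synthase Cers3 and Nipal4 were higher in IMQ skin, and the fatty acid enzymes Elovl4 and Cyp4f39 were lower. The IMQ and untreated tables were scaled separately by the authors, so these are levels in CPM of recovered reads with TMM scaling over 8 libraries, log2 of CPM plus 0.5, and carry no test. The controls also differ in genotype between the tables. Marker sums differed between the tables as well. Stress keratinocyte markers summed to between 4405 and 13208 CPM in IMQ libraries, against 2291 to 2922 CPM in untreated libraries. Neutrophil markers summed to between 84.7 and 597 CPM in IMQ libraries, against 20.5 to 31.6 CPM in untreated libraries. S100a8 and S100a9 stand on both lists. Of the other neutrophil markers, Csf3r, Retnlg and Camp had at most 0.815, 0.156 and 0.246 CPM in any library. Cxcr2 had 19.1 to 115 CPM in IMQ libraries, against 0.596 to 1.30 CPM in untreated libraries. Mmp9 had 8.56 and 7.02 CPM in KO IMQ libraries, against 23.3 and 16.7 CPM in KO untreated libraries. The part of these marker sums in the members' values was not tested.

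Cers3 had 391 and 296 CPM in KO IMQ libraries, against 152 and 136 CPM in KO untreated libraries, and 208 and 238 CPM in control IMQ libraries, against 131 and 148 CPM in control untreated libraries. All 4 IMQ libraries lay above all 4 untreated ones, with differences of 1.24 on the log2 scale in labelled knockouts and 0.68 in controls. Alox12b differed by 1.11 in labelled knockouts and 1.17 in controls. Its group means were 340 CPM in KO IMQ, against 157 CPM in KO untreated libraries. Nipal4 differed by 1.00 and 0.66, with 248 CPM in KO IMQ, against 124 CPM in KO untreated libraries. Abhd5 was higher by small and even steps of 0.30 in labelled knockouts and 0.24 in controls. For these 4 genes no IMQ library overlapped an untreated one, and for none of the 10 did all IMQ libraries lie lower, while 27.1% and 23.7% of all genes showed these patterns.

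Elovl4 had 611 and 992 CPM in KO IMQ libraries, against 1083 and 1512 CPM in KO untreated libraries, and 619 and 568 CPM in control IMQ libraries, against 641 and 1183 CPM in control untreated libraries. In labelled knockouts and in controls both IMQ libraries were lower, by 0.72 and 0.55. These controls were Ovol1 +/+ under IMQ and Ovol1 +/- untreated. The female controls hardly differed (-0.05) where the male controls differed by -1.06. Summed markers of sebocytes, the lipid cells of the sebaceous gland, were 661 and 1384 CPM in KO IMQ libraries, against 2784 and 2825 CPM in KO untreated libraries. They were 1072 and 615 CPM in control IMQ libraries, against 1188 and 2097 CPM in control untreated libraries. For these markers as for Elovl4, the male library was the lower one in control IMQ skin and the higher one in the other 3 groups, and their part in the Elovl4 values was not tested. Cyp4f39 was also lower in IMQ libraries, by 0.34 in labelled knockouts and 0.37 in controls. Aloxe3 differed by 0.57 and 0.36, Pnpla1 by 0.40 and 0.63 and Abca12 by 0.21 and 0.08, with overlap in controls for Aloxe3 and Abca12. Sdr9c7 differed by -0.13 in labelled knockouts and 0.49 in controls, and its IMQ and untreated libraries overlapped in both.

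**Figure D3:**
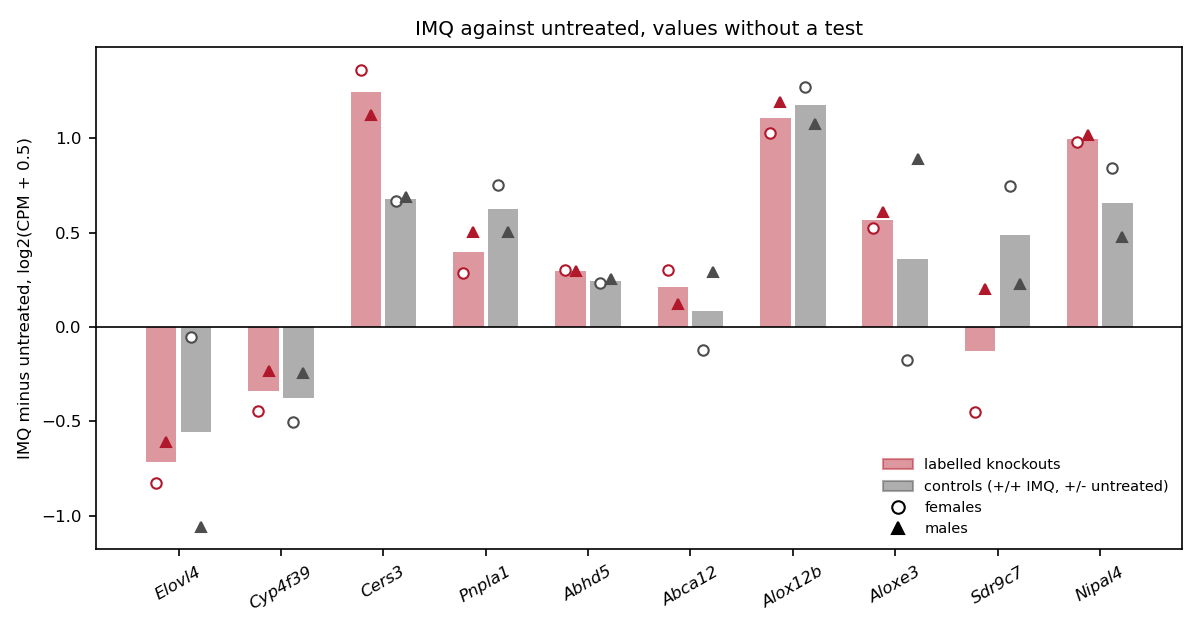
IMQ minus untreated difference in log2(CPM + 0.5) for each gene (bars, group means of 2), with labelled knockouts left of controls; open circles are the female libraries and triangles the male ones. Bars of Cers3, Alox12b and Nipal4 stand highest (0.66 to 1.24), and those of Elovl4 and Cyp4f39 lie below 0 in labelled knockouts and in controls.

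Counted over the list, 7 of 10 members were higher and 2 lower without overlap in labelled knockouts, where 39.9% and 40.1% of all genes were. In controls 5 were higher and 2 lower, where 35.3% and 32.3% of all genes were. The median of the 10 differences was 0.35 in labelled knockouts and 0.42 in controls, beside -0.01 and 0.02 over all genes.

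Several members had higher values in male than in female libraries, though none passed the test in limma. Male and female libraries were compared after the data had been seen, in the limma fit with sex as a term, and each group held 1 library of each sex, so sex and the source of the library cannot be told apart within a group. The fit called 0.144% of all genes, 21 in number, and 0 of 10 members, with 5 of 10 at an unadjusted p under 0.05 (12.6% of all genes); edgeR called 0.116% of all genes and 0 members. The estimate was positive for 8 of 10 members, where 49.7% of all genes were. For 6 members (Alox12b, Sdr9c7, Cyp4f39, Pnpla1, Abhd5 and Nipal4) the male library was higher in all 4 groups, a pattern that 12.1% of all genes showed.

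Sdr9c7 had the widest gap. In the order KO IMQ, control IMQ, KO untreated and control untreated, its male libraries had 7311, 6995, 7930 and 7208 normalised counts, against 3628, 4540, 6089 and 3303 in the female libraries. Every male value lay above every female value. These counts come from 2 separately scaled tables. In CPM scaled over 8 libraries, males had 194 to 240 and females 88.5 to 161, so the order held and the female values were more spread. The male minus female difference was 0.79 on the log2 scale (SE 0.13, 95% interval 0.47 to 1.10, limma adjusted p = 0.112), higher in 4 of 4 groups. Pnpla1 differed by 0.41 (SE 0.08, limma adjusted p = 0.154) and Alox12b by 0.40 (SE 0.10, limma adjusted p = 0.200), each in 4 of 4 groups. Elovl4 differed by 0.48 (SE 0.16, limma adjusted p = 0.298) in 3 of 4 groups, with control IMQ the exception, and Cyp4f39 by 0.28 (SE 0.09, limma adjusted p = 0.290) in 4 of 4. DESeq2 called Sdr9c7 (adjusted p = 8.7e-05), Pnpla1 (adjusted p = 0.0098) and Alox12b (adjusted p = 0.0323), at 3.11% of all genes called. Abca12, Aloxe3 and Cers3 had estimates of -0.08, 0.03 and -0.05, with intervals across 0.

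Several marker lists differed between the sexes. The 10 dermal fibroblast markers, which include collagen genes, summed to between 631 and 3361 CPM in male libraries, against 118 to 351 CPM in female libraries. The 10 suprabasal keratinocyte markers summed to between 19177 and 24625 CPM in male libraries, against 12858 to 20496 CPM in female libraries. Both sums were higher in the male library in 4 of 4 groups, and 3 of the 10 fibroblast markers and 0 of the 10 suprabasal ones passed the limma test between the sexes. No marker of either list was at 0 in any library. Of 11 sebocyte markers, 10 had positive male minus female estimates (median 0.52), and their sum was higher in the male library in 3 of 4 groups, with control IMQ the exception. The estimates were positive for 0 of 7 Langerhans and dendritic cell markers (median -0.42). They were positive for 0 of 6 melanocyte markers (median -0.59) and 0 of 6 skeletal muscle markers (median -0.54). Of the sebocyte list and these lists, 0 markers passed the test. Sums were higher in the male library in 1 of 4 groups for Langerhans and dendritic cells, 1 for melanocytes and 2 for muscle. The melanocyte and muscle sums peaked in the female control IMQ library, at 89.4 and 102 CPM. In all other libraries they were at most 31.4 and 18.4 CPM. The part of these lists in the members' values was not tested.

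**Figure D4:**
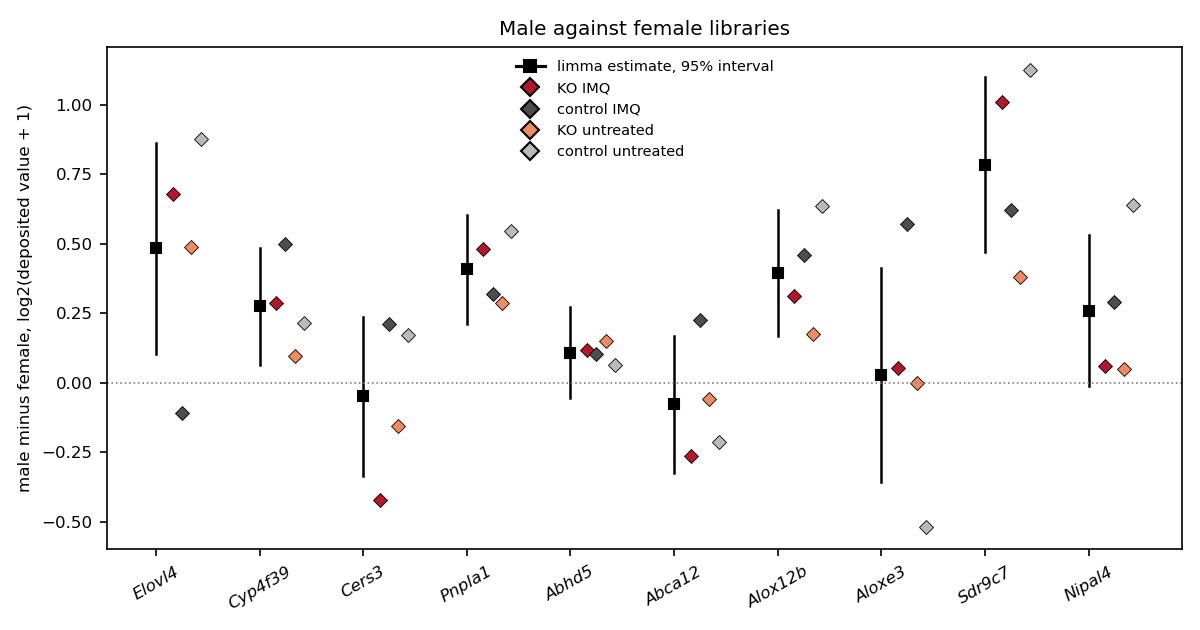
Male minus female difference in log2(deposited value + 1) for each gene; squares with lines are limma estimates with 95% intervals, diamonds the 4 groups. The estimate of Sdr9c7 is highest at 0.79 with all 4 diamonds above 0, and those of Abca12, Aloxe3 and Cers3 lie close to 0.

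The rest of the pathway was followed through 7 lists of 110 genes, chosen with earlier results of these data known. Of these, 109 were in the tables and 106 were tested. In limma 0 of 106 passed the adjusted test under IMQ, untreated or in the difference. Under IMQ 12 were higher and 26 lower at an unadjusted p under 0.05, where 10% and 11.9% of all genes were (DESeq2 called 20). Untreated, 9 were higher and 3 lower at that level, where 2.79% and 1.67% of all genes were (DESeq2 called 3). For the difference the counts were 6 and 15, where 4.05% and 6.02% of all genes were (DESeq2 called 1). The median over the 106 was -0.17 under IMQ and 0.07 untreated.

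With sex as a block, limma called 9 of the 106 under IMQ, where it called 2.45% of all genes. Brackets in the next sentences give the log2 fold change and then the adjusted p of limma with the block. In labelled knockouts 5 were higher than in controls and 4 lower. The higher ones included Ppard, a nuclear receptor for fatty acids (1.05, 0.0336), and the sphingomyelin synthase Sgms2 (0.94, 0.0475). Also higher were the triglyceride synthase Dgat1 (0.82, 0.0432), the epoxide hydrolase Ephx3 (0.72, 0.0417) and the cholesterol sulfotransferase Sult2b1 (0.64, 0.0435). The lower ones were the alkaline ceramidase Acer1 (-1.28, 0.0436), the epidermal lipases Lipk (-1.04, 0.0435) and Lipm (-0.68, 0.0280), and the fatty acid synthase Fasn (-0.57, 0.0462). Dgat1, Sult2b1, Lipm and Fasn were named after their values were seen. Without the block none of the 9 passed, with Ppard nearest (SE 0.16, adjusted p = 0.0517).

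Ephx3, which opens fatty acid epoxides, had estimates of similar size in both settings. It had 3824 and 3573 normalised counts in KO IMQ libraries, against 2134 and 2344 in control IMQ libraries, and 5273 and 5253 in KO untreated libraries, against 2888 and 3568 in control untreated libraries. Knockout libraries lay above control libraries in both settings, with log2 fold changes of 0.72 and 0.71 (SE 0.13 each, limma adjusted p = 0.0714 and 0.346). Lipk lay the other way, at 820 and 1184 in KO IMQ libraries, against 1605 and 2547 in control IMQ libraries, and at 479 and 487 in KO untreated libraries, against 937 and 1559 in control untreated libraries.

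Values by list are log2 fold changes of KO over control, under IMQ unless stated. The 17 genes of sphingolipid and ceramide synthesis had 4 higher and 4 lower at an unadjusted p under 0.05, among them Sgms2 above and the ceramide synthase Cers6 (-0.85, SE 0.26), with the palmitoyltransferase subunit Sptlc1 at 0.61 (SE 0.25). Cers4, another ceramide synthase, was at 0.81 untreated (SE 0.34) and at 0.47 without the female control untreated library; the summed sebocyte markers given for Elovl4 lay higher in KO than in control untreated libraries too, and their part was not tested. The 22 genes that supply and activate very long chain fatty acids had 2 higher and 7 lower, with the desaturases Fads2 at -1.71 (SE 0.70) and Fads1 at -1.46 (SE 0.42) and the elongation cycle dehydratase Hacd1 at 1.06 (SE 0.32). Without the female control IMQ library, which also had the highest endothelial, muscle and adipocyte sums, these were -0.72, -0.82 and 0.59. Fads2 had only 15 and 17 recovered reads in KO IMQ libraries, against 116 and 23 in control IMQ libraries. Among 15 tested genes of the list called extracellular lipid processing, 2 were higher and 5 lower. Pla2g4e, on that list though a cytosolic phospholipase, was at 2.53 (SE 0.66). It had 7378 and 4206 normalised counts in KO IMQ libraries, against 529 and 1758 in control IMQ libraries. The neutral ceramidase Asah2 was at -0.93 (SE 0.38).

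The 12 tested genes of triglyceride storage and lipolysis had 1 higher and 2 lower under IMQ, the lipid droplet coat gene Plin3 (-0.83, SE 0.19) and the lipase Pnpla2 (-0.53, SE 0.18) being lower. Untreated, 2 were higher, Mgll (1.06, SE 0.34), which splits monoglycerides, and Plin2 (0.85, SE 0.26), another droplet coat gene. This list's median was -0.09 under IMQ and 0.53 untreated. Summed sebocyte markers, from a gland rich in lipid droplets, were 2784 and 2825 CPM in KO untreated libraries, against 1188 and 2097 CPM in control untreated libraries, and their part was not tested. Of 9 tested relatives of the lipoxygenases and epoxide enzymes, 1 was higher (Ephx3) and 5 lower under IMQ. The lower ones included Alox5 (-1.41, SE 0.35), Alox12e (-1.07, SE 0.44) and the cytochrome P450 Cyp2b19 (-0.83, SE 0.32). For Alox5 the female pair was at -2.22 and the male pair at -0.61, and for Alox12e they were at -1.79 and -0.35. The female control IMQ library had the higher control value of both genes. The 15 envelope and lamellar granule genes had 1 higher, the small GTPase Rab11a (0.43, SE 0.16), and 1 lower, the envelope protein periplakin, Ppl (-0.70, SE 0.22), while the envelope precursor Ivl was at -0.58 untreated (SE 0.20). Of 16 transcription factors, Ppard was higher and Ppara (-1.31, SE 0.29) and Rxra (-0.56, SE 0.11) lower, with Rora at -0.35 (SE 0.19). Ppara had only 25 and 31 recovered reads in KO IMQ libraries, against 95 and 47 in control IMQ libraries. In limma without the block, none of these list genes passed the adjusted test.

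**Figure D5:**
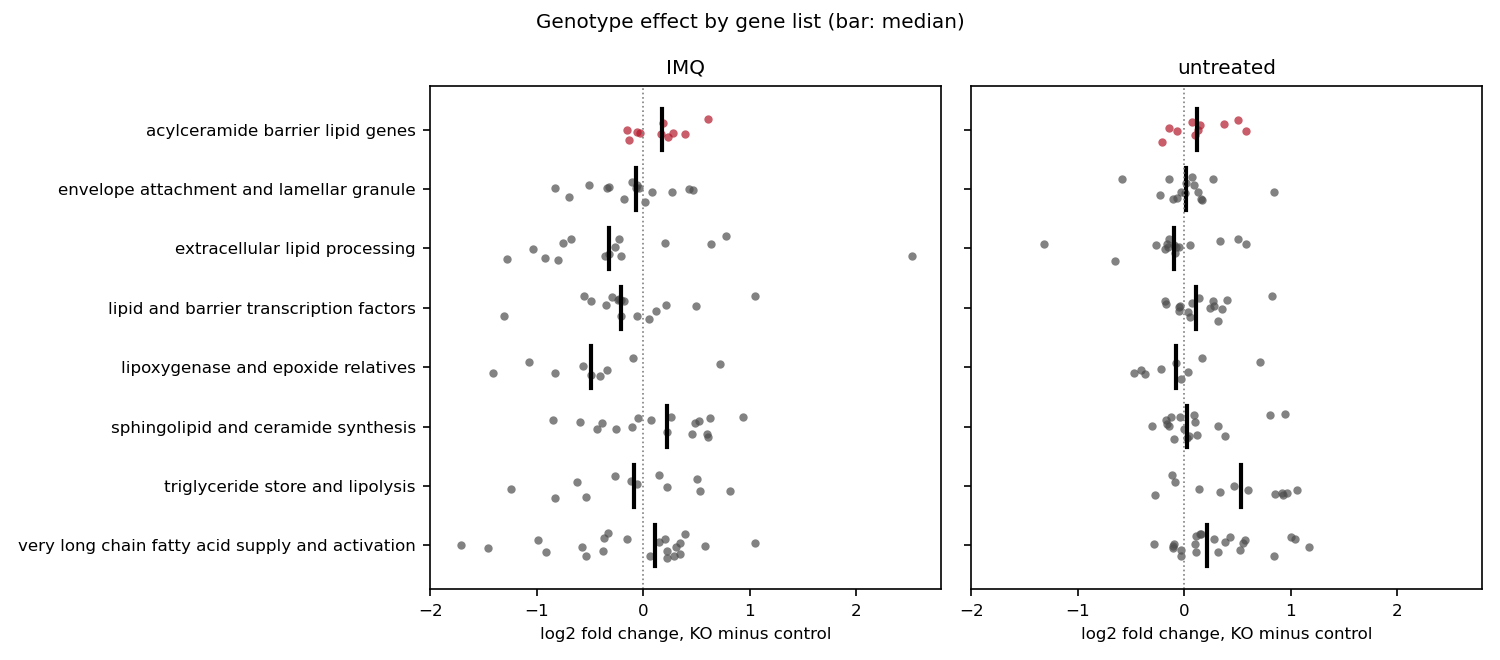
Log2 fold change of labelled knockout over control for each tested gene (points) of the 10 acylceramide genes (top, red) and 7 related lists, under IMQ (left) and untreated (right), with list medians as bars. The 10 genes lie between -0.15 and 0.61 under IMQ, and the wider lists reach from -1.71 to 2.53. The lowest of these, Fads2, had only 15 and 17 recovered reads in KO IMQ libraries.

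In male against female libraries, 24 of the 106 were higher and 3 lower at an unadjusted p under 0.05, where 7.3% and 5.33% of all genes were, and limma called 0 (DESeq2 13). Among 15 tested genes of the list called extracellular lipid processing, 7 were higher in males and 0 lower.

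The members did not share 1 profile over the libraries. Measured as the root mean square difference in centred log2(CPM + 0.5) over 8 libraries, Abhd5 lay nearest to the mean of the other 9 (0.114) and Elovl4 farthest (0.630), with Pnpla1 at 0.177 and Alox12b at 0.460. The genes whose profiles lay nearest to the mean of all 10 were Crcp (0.0488), Sec61b (0.0643), Ndufs5, Mea1, Ost4, Pcdhb13, Arl1, Rab4b, Mlf2 and Golga5, against a median of 0.405 over 13615 genes. The mean profile of the 10 ran between -0.42 in the female control untreated library and 0.38 in the male KO IMQ library, and Pcdhb13 and Rab4b rest on under 2 CPM.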

How the data were processed

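Per the submitters' processing notes, reads were handled with Trimmomatic 0.35, STAR 2.5.2a, DESeq2 1.24.0 and R 3.6.1 on the mm10 genome; nothing used here states the read counter, gene annotation or strand setting. What the authors deposited is a scaled signal per gene: whole reads over a size factor of each library, in 2 separately scaled tables (IMQ and untreated) of the same genes; they are called normalised counts. All values were whole multiples of 1 step per library within 0.001 read (100% of values), which gave recovered reads of 28.6 to 43.1 M per library. Intervals and p-values of the fits rest on 2 libraries per group.

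Genes needed a mean of at least 10 in either table, which left 14614; all 10 members passed. limma 3.58.1 (R 4.3.3) was fitted to log2(value + 1) with 4 group means over 8 libraries (4 residual degrees of freedom), trend and robust moderation, and Benjamini-Hochberg adjustment. Contrasts were KO minus control under IMQ, the same untreated, and their difference. The replicate number is the sex of the mouse, and female deviations from group means correlated between groups (0.145 to 0.463 across genes), so values with sex as a replicate block stand beside a result where they change a call. Alternatives were other pseudocounts (0.5, 5), filters (none, 50) and scalings, edgeR 4.0.16 and DESeq2 1.42.0 on recovered reads, and each library left out. The limma code was tested on simulated data. CPM used TMM factors over 8 libraries; RPKM used GENCODE vM21 exon lengths (GRCm38, 16745 of 16902 symbols matched). Upstream sequences are from RefSeq (GRCm38.p6), matched by symbol for 9 of 10 members.

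The members, lists and core elements were chosen with earlier results of these data known, and the male against female comparison was added after the data were seen. Named list genes were at most 4 a list, the strongest changes among those under 0.05 before adjustment, plus those named for their block call.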

Additional observations from a re-analysis of the deposited data

Results flagged for a closer look

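Of the list genes named, 10 had labelled knockout effects that pointed one way in both sex pairs under IMQ and the opposite way in both untreated pairs. Of the 10 acylceramide genes, 0 had this pattern. The list genes were named for strong changes in these data and the acylceramide genes were chosen by symbol, so these counts cannot be compared. Over all 106 list genes tested, 21 had this pattern, so 11 more are not named here. The difference of the effects is IMQ minus untreated, and its limma test did not pass for any of the 10 named genes, with adjusted p between 0.476 and 0.506. Controls were Ovol1 +/+ under IMQ and Ovol1 +/- untreated, so treatment and control genotype cannot be told apart in this difference. The effect was more positive under IMQ for Sptlc1, the serine palmitoyltransferase subunit, by 0.78 (SE 0.35), for Hacd1, a dehydratase of fatty acid elongation, by 1.15 (SE 0.46), for Pla2g4e, a cytosolic phospholipase, by 3.18 (SE 0.93), for Rab11a, a small GTPase of vesicle traffic, by 0.53 (SE 0.22). It was more negative under IMQ for Scd2, a stearoyl-CoA desaturase, by -2.17 (SE 0.42), for Pnpla2, the triglyceride lipase, by -0.87 (SE 0.25), for Ppl, periplakin of the envelope, by -0.77 (SE 0.31), for Ppara, a fatty acid nuclear receptor, by -1.45 (SE 0.40), for Rora, a nuclear receptor, by -0.67 (SE 0.27), for Fasn, the fatty acid synthase, by -0.89 (SE 0.31). Scd2 is an example, with knockout minus control values of -1.40 for females and -0.58 for males under IMQ, against 1.13 and 1.22 untreated. It was the one of these genes that DESeq2 called in the difference. Summed sebocyte markers were 2784 and 2825 CPM in KO untreated libraries, against 1188 and 2097 CPM in control untreated libraries. Under IMQ they were 661 and 1384 CPM in KO libraries, against 1072 and 615 CPM in control libraries. Their part in the Scd2 values was not tested. Ppara had only 25 and 31 recovered reads in KO IMQ libraries.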

How the results depend on the processing

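The call of 0 members held under each limma and edgeR setting run, with and without the sex block, and with each library left out (0 to 0 called). DESeq2 called 1 under IMQ (Cers3) and 3 for male minus female. Pathway list genes called under IMQ were 1 without the filter, 1 with quantile normalisation, 9 with the replicate block, 5 with the edgeR block, 20 with DESeq2 and 0 to 4 with a library left out; the pairing by sex thus moved this count, and the paired fit changed no member's call. DESeq2 called 3 list genes untreated, 1 in the difference and 13 for male minus female. Over all genes the IMQ count was 64, 43 with edgeR, 358 with the replicate block, 292 with the edgeR block, 1247 with DESeq2 and 0 with plain moderation or each table alone, which gives no difference contrast. With 1 library left out it was 299 without the male KO IMQ library, 49 without the male and 5 without the female control IMQ library, 3 without the female KO IMQ library, and 0 without any 1 of the 4 untreated libraries. With total reads only, the members' median IMQ minus untreated difference was 0.23 in labelled knockouts and 0.36 in controls. Quantile normalisation turned the Abhd5 difference to -0.000913. The cause of these shifts was not tested. Leaving out 1 library, the median of the members ranged over 0.0397 to 0.29 under IMQ, 0.0179 to 0.18 untreated, -0.12 to 0.18 in the difference, 0.25 to 0.49 for IMQ minus untreated in labelled knockouts, 0.19 to 0.71 in controls, 0.23 to 0.33 for male minus female. The sign of a member's estimate changed under IMQ for Aloxe3 (-0.31 to 0.26), Cyp4f39 (-0.31 to 0.19), Pnpla1 (-0.39 to 0.0869), Sdr9c7 (-0.64 to 0.38); untreated for Aloxe3 (-0.47 to 0.049), Cers3 (-0.0132 to 0.16), Cyp4f39 (-0.17 to 0.0417), Nipal4 (-0.46 to 0.17), Pnpla1 (-0.17 to 0.38), Sdr9c7 (-0.053 to 1.07); in the difference for Abca12 (-0.0297 to 0.23), Abhd5 (-0.0428 to 0.11), Alox12b (-0.41 to 0.23), Aloxe3 (-0.10 to 0.47), Cyp4f39 (-0.24 to 0.26), Elovl4 (-0.63 to 0.25), Nipal4 (-0.00382 to 0.63), Pnpla1 (-0.53 to 0.0153); for male minus female of Aloxe3 (-0.15 to 0.21), Cers3 (-0.13 to 0.0761); for IMQ minus untreated in labelled knockouts of Sdr9c7 (-0.64 to 0.39); for IMQ minus untreated in controls of Abca12 (-0.0209 to 0.19), Sdr9c7 (-0.0765 to 1.05). The least counted member value was 1380 reads, so depth limits the members little. The lone library left in a group was assumed to vary like the others.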
